A study of Mus musculus with 6 samples.

Results

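Axon guidance ligands and receptors were examined in brain microvessels of TEKCRIF1 mice, in which *Crif1* (*Gadd45gip1*), a gene needed for mitochondrial oxidative phosphorylation, is deleted through Cre under the endothelial Tek promoter. The genes were chosen by symbol as all semaphorins of classes 3 to 7, plexins, ephrins, Eph receptors, Slits, Robos, netrins and the Unc5 and Dcc netrin receptors, and 67 of the 23183 genes in the data were found. They comprised 20 semaphorins, 9 plexins, 8 ephrins, 14 Eph receptors, 3 Slits, 4 Robos, 4 netrins and 5 netrin receptors. KO mice carried TEK-cre with *Crif1* flox/flox, and the WT controls carried TEK-cre with *Crif1* +/+, so Cre was present in both groups. The mice are labelled C57BL/6, their age and sex are not given in the sources used here, and each group had 3 mice with 1 library each. The RNA came from whole cerebral microvessels, which hold mural and attached brain cells beside the endothelial cells (ECs) that the deletion targets.

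Guidance cues are secreted or membrane-bound proteins first known for steering growing axons, and many of them also steer sprouting vessels. Semaphorins act through plexins, with neuropilins as co-receptors for most class 3 members. Ephrins sit in the membrane and signal in both directions with Eph receptors on the neighbouring cell, and ephrin-B2 and EphB4 are classical markers of arterial and venous endothelium. Slits act through Robo receptors, of which Robo4 is the endothelial member, and netrins act through Dcc and the Unc5 receptors, of which Unc5b is found on ECs.

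Promoter sequences are shown for *Efnb1*, *Ephb2* and *Ephb4*, an ephrin-B ligand and a pair of EphB receptors with lower values in every KO mouse. Each window holds 300 bases, from 250 before to 50 after the RefSeq start (GRCm38.p6), written 5′ to 3′ on the strand of the gene. The windows are chrX:99135811-99136110 (plus strand) for *Efnb1*, chr4:136835963-136836262 (minus strand) for *Ephb2* and chr5:137349859-137350158 (plus strand) for *Ephb4*. Capitals mark each match, on either strand, to the GC box GGGCGG, the ETS core CCGGAA or the RBPJ core TGGGAA.
Efnb1: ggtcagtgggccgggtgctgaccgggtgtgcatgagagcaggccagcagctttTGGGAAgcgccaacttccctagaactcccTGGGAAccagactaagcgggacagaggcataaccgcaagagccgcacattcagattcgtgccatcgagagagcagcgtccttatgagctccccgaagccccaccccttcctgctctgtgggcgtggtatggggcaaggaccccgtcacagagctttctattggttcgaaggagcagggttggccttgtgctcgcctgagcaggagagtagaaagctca
Ephb2: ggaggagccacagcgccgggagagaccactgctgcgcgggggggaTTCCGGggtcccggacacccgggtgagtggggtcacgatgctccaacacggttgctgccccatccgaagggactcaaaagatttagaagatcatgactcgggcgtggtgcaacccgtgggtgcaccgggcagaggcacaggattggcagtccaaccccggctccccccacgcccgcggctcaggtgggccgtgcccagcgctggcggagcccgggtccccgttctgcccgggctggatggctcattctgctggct
Ephb4: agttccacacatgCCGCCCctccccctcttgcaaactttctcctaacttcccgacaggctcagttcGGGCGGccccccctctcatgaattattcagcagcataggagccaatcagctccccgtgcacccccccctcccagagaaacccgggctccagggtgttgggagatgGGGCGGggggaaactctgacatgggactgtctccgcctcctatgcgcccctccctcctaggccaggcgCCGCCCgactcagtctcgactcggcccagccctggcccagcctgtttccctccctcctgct
The *Efnb1* window had 2 RBPJ cores, the *Ephb2* window had 1 ETS core, and the *Ephb4* window had 4 GC boxes. RefSeq windows were matched for 57.00 of the guidance genes, 73.00 windows in all. A GC box was present in 69.9% of them and in 61.2% of the 13715 windows of genes tested. The RBPJ core was present in 23.3% of both sets and the ETS core in 9.59% against 24.7%. A match describes the letters of the window and not a bound site.

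Expression was deposited as FPKM, a read level scaled to transcript length and library size, so levels of different genes can be set side by side. The groups were contrasted by limma on log2(FPKM + 1) for 14247 genes averaging 1 FPKM or more, with adjustment over all of them. Fold changes are KO minus WT on this scale, which understates the change of low genes. With 3 mice a group, the smallest exact two-sided permutation p is 0.1. No gene had an adjusted limma p under 0.05 (0 genes, smallest 0.841), while 5.88% of genes were under 0.05 before adjustment. The targeted *Gadd45gip1* had 18.8, 15.3 and 16.5 FPKM in the WT mice against 10.8, 7.54 and 10.4 FPKM in the KO mice, lower in each KO mouse, with a KO mean at 56.7% of the WT mean. Depth, estimated from the spacing of low FPKM values, was 6300000 to 11600000 fragments, least in KO 2, and 3 fragments on 1 kb of transcript then equal 0.258 to 0.473 FPKM.

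The endothelial markers *Pecam1* and *Cdh5* were expressed in every library. *Pecam1* had 55.8 to 90.9 FPKM in WT and 58.8 to 88.9 FPKM in KO mice, with overlap and a log2 fold change of 0.09. *Cdh5*, the VE-cadherin of endothelial junctions, had 86.7, 92.4 and 91.3 FPKM in the WT mice against 50.8, 42.5 and 38.1 FPKM in the KO mice. Every KO mouse was lower, with a KO mean at 48.6% of the WT mean and a log2 fold change of −1.03 (SE 0.19, limma p = 0.000303, adjusted p = 0.841, exact permutation p = 0.1). It was the 1 of the 16 endothelial markers under an unadjusted limma p of 0.05, near the 5.88% of all genes tested. *Emcn*, the endomucin of capillaries and veins, named after its values were seen, was higher in every KO mouse, with 24.8 to 26.5 FPKM in WT and 26.9 to 46.7 FPKM in KO mice (log2 fold change 0.37, limma p = 0.147, exact permutation p = 0.1). The libraries also held RNA of other cells. A negative log2 fold change was found for 8 of 8 astrocyte, 8 of 8 fibroblast, 9 of 10 pericyte, 8 of 9 oligodendrocyte, 8 of 9 microglia, 9 of 12 neuron, 10 of 16 endothelial cell and 1 of 8 smooth muscle cell markers. Lower with an unadjusted limma p under 0.05 were 3 of 8 astrocyte, 3 of 9 oligodendrocyte, 2 of 8 fibroblast, 2 of 10 pericyte, 2 of 12 neuron, 1 of 9 microglia and 0 of 8 smooth muscle cell markers, where 3.11% of all genes tested were, and none was higher at such a p (0 in each list). The astrocyte markers summed to 699 to 857 FPKM in WT and 542 to 576 FPKM in KO mice, without overlap. The sums were 1619 to 2505 and 1116 to 1555 FPKM for fibroblast markers, also without overlap. They were 1269.6 to 1778 and 1145 to 1526 FPKM for endothelial markers, with overlap. No marker was at 0 in its mean. In such bulk samples, fewer cells of a type and less RNA per cell cannot be told apart, and the part of cell composition in the values below was not tested.

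In WT vessels, 66 guidance genes passed the filter on low values, with mean levels from 1.61 FPKM for *Unc5d* to 67.6 FPKM for *Plxnb2* and a median of 7.81 FPKM. *Epha1* did not pass, with 0.157 to 0.807 FPKM over the 6 libraries. A WT mean above 20 FPKM was found for 8 genes, namely *Plxnb2*, *Efnb3*, *Sema7a*, *Plxnd1*, *Ephb4*, *Efnb1*, *Sema6b* and *Efnb2*. The lowest library of *Efna4*, KO 2, held an estimated 3 fragments, the fewest of any of these genes.

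Guidance genes were lower in KO mice more often than higher. Of the 66 tested, 50 had a negative and 16 a positive log2 fold change, beside 50.8% negative among all genes tested. The median log2 fold change was −0.26, against −0.01 over all genes tested. It was −0.37 without KO 2, −0.13 without KO 3 and −0.16 after each library was corrected for transcript GC content. All KO values lay below all WT values for 11 genes, as they did for 5.7% of genes tested, and above them for 2, as for 5.37%. Before adjustment, 9 genes were lower at a limma p under 0.05, where 3.11% of genes tested were, and 0 were higher, where 2.77% were. None passed adjustment (0 of 66 with limma). The 9 genes were *Efna3*, *Efnb1*, *Efnb3*, *Epha8*, *Ephb2*, *Ephb4*, *Ephb6*, *Robo1* and *Sema3d*. Of them, 7 are ephrins or Eph receptors, as are 21 of the 66 tested. Leaving out a library moved the number of lower genes from 9 to 21 without KO 2, where 5.83% of all genes were called. It was 3 without WT 2, where 1.42% were, 5 without KO 1, where 2.15% were, and 5 without KO 3, where 3.44% were. Of the 9, *Efna3* alone stayed under 0.05 in all 12 alternative settings. *Efnb1*, *Efnb3* and *Epha8* did not in 1 each, *Robo1* in 3, *Ephb4* in 4, *Ephb6* in 5, *Ephb2* in 6 and *Sema3d* in 8.

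**Figure D1:**
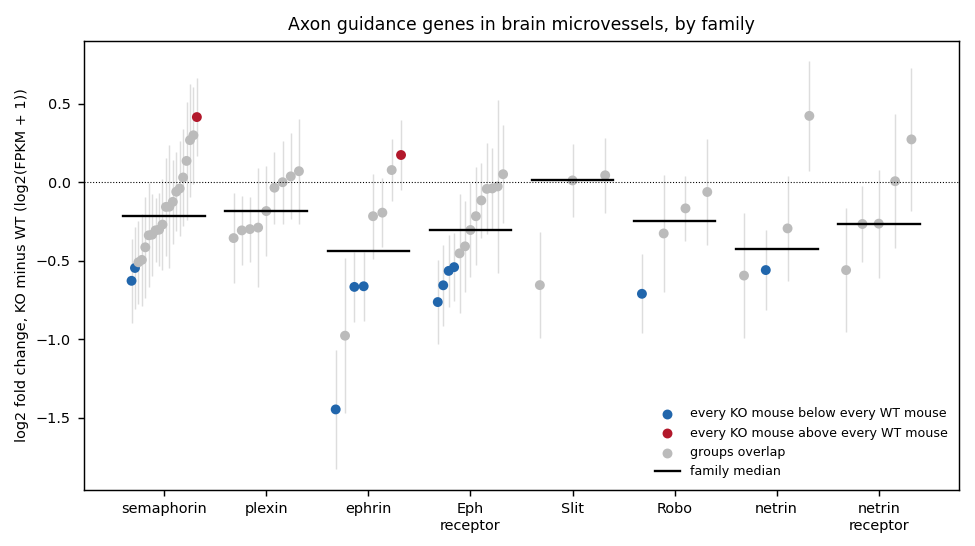
Log2 fold change (KO minus WT, log2(FPKM + 1)) of the 66 tested guidance genes by family, with the limma standard error as a grey line and the family median as a black bar. The ephrins (median −0.44) and netrins (−0.43) sit lowest and the Slits at 0.01, and 7 of the 11 genes with every KO mouse below every WT mouse (blue) are ephrins or Eph receptors.

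Ephrin ligands had lower summed levels in KO vessels. The 8 ephrins summed to 151, 152 and 136 FPKM in WT 1 to WT 3 and to 109, 114 and 92.3 FPKM in KO 1 to KO 3, so each KO mouse lay below each WT mouse. Of the 8, 6 had a negative log2 fold change, with a median of −0.44, and 3 were lower at an unadjusted limma p under 0.05, beside 3.11% of all genes tested. The abundant *Efnb3* and *Efnb1* weigh most in these sums and in their difference. *Efna1* and *Efna5* had positive log2 fold changes (0.08 and 0.17).

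*Efnb3*, a transmembrane ligand known as a midline barrier to axons, lies on chromosome 11 (GRCm38, 69554092-69560205) and was the most abundant ephrin. It had 55.96, 51.8 and 51.2 FPKM in the WT mice against 35.04, 41.7 and 24.5 FPKM in the KO mice. The WT mice were close together, and KO 3 was the lowest. The means were 52.98 ± 2.60 FPKM for WT and 33.7 ± 8.71 FPKM for KO mice (± SD, 3 mice each, exact permutation p = 0.1), and the log2 fold change was −0.67 (SE 0.22, limma p = 0.0141, adjusted p = 0.841). *Efnb1*, on chromosome X (99136130-99148991), encodes the ephrin-B ligand whose promoter is shown above. It had 30.9, 34.6 and 25.1 FPKM in the WT mice against 22.6, 15.2 and 18.6 FPKM in the KO mice. All KO mice were lower, KO 2 most so, with a KO mean at 62.2% of the WT mean and a log2 fold change of −0.66 (SE 0.22, limma p = 0.013, adjusted p = 0.841, exact permutation p = 0.1). *Efnb2*, the arterial ephrin, had 25.2, 23.7 and 18.1 FPKM in the WT mice against 16.99, 23.9 and 17.4 FPKM in the KO mice. Its groups overlapped, since KO 2 lay between WT 1 and WT 2, and the log2 fold change was −0.19 (SE 0.22, limma p = 0.404, exact permutation p = 0.3), ranging over −0.34 to −0.10 when each library was left out.

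Among the ephrin-A ligands, which are held at the membrane by a lipid anchor, *Efna3* had the lowest log2 fold change of all 66 genes. It had 6.72, 10.7 and 9.37 FPKM in the WT mice against 1.71, 5.70 and 1.53 FPKM in the KO mice. KO 1 and KO 3 were far below the WT mice, and KO 2 was nearer to them. The means were 8.92 ± 2.01 FPKM for WT and 2.98 ± 2.36 FPKM for KO mice (± SD, 3 mice each, exact permutation p = 0.1), and the log2 fold change was −1.45 (SE 0.38, limma p = 0.00351, adjusted p = 0.841). *Efna3* (chromosome 3, 89313899-89322965) shares exon positions with *Gm15998* on the opposite strand, and whether strand was used in counting is not given in the sources used here. *Efna4*, the least abundant ephrin, had 7.12, 2.76 and 2.25 FPKM in the WT mice against 1.33, 0.307 and 3.25 FPKM in the KO mice. WT 1 stood apart there and the groups overlapped. *Efna5* was the only ephrin with every KO mouse above every WT mouse, with WT values of 5.02, 4.98 and 5.21 FPKM and KO values of 6.03, 6.01 and 5.52 FPKM. The log2 fold change was small, 0.17 (SE 0.22, limma p = 0.452, exact permutation p = 0.1), or 0.08 after the GC correction. *Efna1*, the most abundant ephrin-A, had 13.8 to 16.8 FPKM in WT and 14.5 to 17.2 FPKM in KO mice, and *Efna2* had 6.68 to 8.34 FPKM in WT and 4.29 to 8.82 FPKM in KO mice.

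Eph receptors are the receptor tyrosine kinases that bind ephrins, and those of the EphB subfamily had lower summed levels in all KO mice. The 5 EphB genes summed to 63.4, 71.5 and 67.4 FPKM in the WT and 44.8, 47.7 and 47.6 FPKM in the KO mice, and all 5 had a negative log2 fold change (median −0.54). *Ephb4* and *Ephb6* weigh most in these sums, and *Ephb3* had a log2 fold change of only −0.04. The EphA genes summed to 51.8, 68.9 and 57.2 FPKM in the WT and 49.2, 74.99 and 35.4 FPKM in the KO mice, with a median log2 fold change of −0.17 over the 8 tested. The EphA sums overlapped, KO 2 being the highest and KO 3 the lowest of the 6 mice. The difference between the subfamilies was not tested. They also differed in median transcript GC content, at 57.0% for the EphB and 46.8% for the tested EphA genes. After the GC correction, *Ephb2*, *Ephb4* and *Ephb6* were no longer under an unadjusted limma p of 0.05.

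*Ephb4*, the venous receptor for ephrin-B2, lies on chromosome 5 (137350109-137378669) and was the most abundant Eph receptor. It had 33.4, 32.9 and 28.99 FPKM in the WT mice against 23.7, 16.4 and 25.5 FPKM in the KO mice. No KO mouse reached the WT range, and KO 2 was the lowest. The means were 31.8 ± 2.42 FPKM for WT and 21.8 ± 4.82 FPKM for KO mice (± SD, 3 mice each, exact permutation p = 0.1), and the log2 fold change was −0.54 (SE 0.22, limma p = 0.0317, adjusted p = 0.841), or −0.36 without KO 2. Its exons overlap those of *Zan* on the opposite strand. The log2 ratio of *Efnb2* to *Ephb4*, an arterial over a venous gene, was −0.39, −0.46 and −0.65 in WT mice and −0.46, 0.52 and −0.52 in KO mice. KO 2 alone had a ratio above 0, and the difference in means of 0.35 had an exact two-sided permutation p of 0.5 and was 0.01 without KO 2.

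*Ephb6*, which encodes a receptor without kinase activity, had 13.3, 17.6 and 13.8 FPKM in the WT mice against 6.80, 12.98 and 8.25 FPKM in the KO mice. KO 2 lay just under the lowest WT mouse, and a log2 fold change of −0.66 (SE 0.26, limma p = 0.0295, adjusted p = 0.841, exact permutation p = 0.1) was found. *Ephb2*, on chromosome 4 (136647539-136835988), had 7.31, 8.33 and 10.4 FPKM in the WT mice against 5.05, 6.25 and 5.24 FPKM in the KO mice. Every KO mouse was lower here too, with a log2 fold change of −0.56 (SE 0.23, limma p = 0.0345, adjusted p = 0.841, exact permutation p = 0.1). *Epha8* was the only EphA gene without overlap, with WT values of 7.76, 10.03 and 5.63 FPKM and KO values of 3.90, 4.85 and 3.57 FPKM. The KO mice were close together, and the log2 fold change was −0.76 (SE 0.27, limma p = 0.0164, adjusted p = 0.841, exact permutation p = 0.1). *Ephb3* and *Ephb1* overlapped between the groups, at 3.67 to 5.96 FPKM in WT and 4.17 to 5.33 FPKM in KO mice for *Ephb3* and 5.70 to 8.23 FPKM in WT and 3.30 to 7.32 FPKM in KO mice for *Ephb1*. Several EphA genes were spread widely among KO mice, as for *Epha6*, with WT values of 2.72, 5.46 and 3.65 FPKM and KO values of 4.62, 9.48 and 0.795 FPKM.

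**Figure D2:**
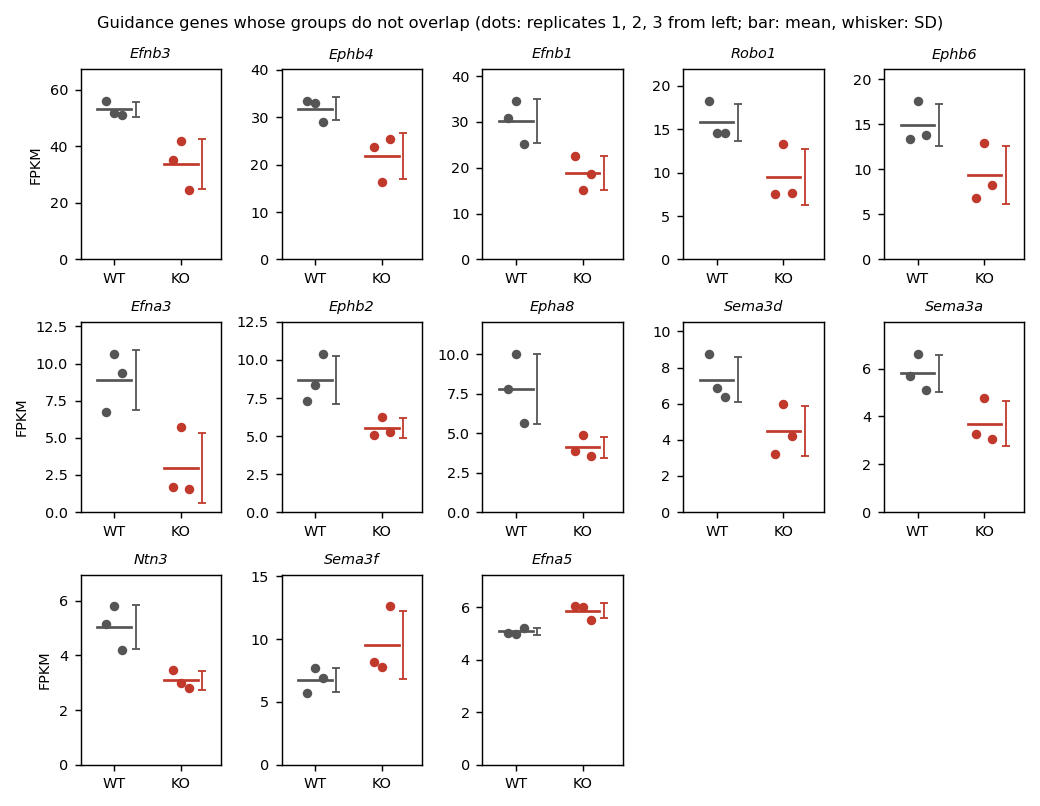
FPKM in each mouse for the 13 guidance genes whose groups do not overlap, with 1 dot per library, the mean as a bar and the SD as a whisker. In the first 11 panels every KO mouse is below every WT mouse, as for *Ephb4* with 16.4 to 25.5 against 28.99 to 33.4 FPKM, and in the last panels, *Sema3f* and *Efna5*, the order is reversed.

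Semaphorins are described by class. Of the 7 secreted class 3 genes, 4 had a positive log2 fold change (median 0.14), while 12 of the 13 membrane-bound genes of classes 4 to 7 had a negative one (median −0.30). The difference between classes was not tested. The sums of classes 4 to 7 overlapped, at 147 to 173 FPKM in WT and 96.0 to 168 FPKM in KO mice. The only semaphorins lower in every KO mouse, *Sema3a* and *Sema3d*, were of class 3. *Sema3a*, a cue that collapses growth cones, had 5.68, 6.62 and 5.10 FPKM in the WT mice against 3.25, 4.79 and 3.06 FPKM in the KO mice. All KO values were lower, with a log2 fold change of −0.55 (SE 0.26, limma p = 0.0608, exact permutation p = 0.1). Its limma p was 0.0229 without KO 2 but 0.0738 without the filter on low values. The log2 fold change of *Sema3a* ranged over −0.71 to −0.45 when each library was left out. *Sema3d* had 8.77, 6.85 and 6.39 FPKM in the WT mice against 3.22, 5.96 and 4.23 FPKM in the KO mice. Its groups were separate too, with a log2 fold change of −0.63 (SE 0.27, limma p = 0.0403, adjusted p = 0.841, exact permutation p = 0.1), but its unadjusted p was above 0.05 in 8 of 12 alternative settings, among them no filter (limma p = 0.0558) and leaving out WT 1 (limma p = 0.14).

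*Sema3f*, a ligand of neuropilin-2, was higher in every KO mouse, with WT values of 5.74, 7.68 and 6.89 FPKM and KO values of 8.20, 7.75 and 12.6 FPKM. KO 2 barely exceeded WT 2 and fell below it when libraries were scaled to equal medians, and the log2 fold change was 0.42 (SE 0.25, limma p = 0.126, exact permutation p = 0.1) and 0.21 to 0.53 when each library was left out (nearest to 0 without KO 3). *Sema3g*, a semaphorin of arterial endothelium, had 24.4, 15.4 and 10.7 FPKM in the WT mice against 20.5, 14.7 and 25.8 FPKM in the KO mice. The groups overlapped, KO 3 was the highest library, and the log2 fold change was 0.30 (SE 0.31, limma p = 0.354, exact permutation p = 0.5), ranging over 0.03 to 0.59 when each library was left out. *Sema7a*, which is anchored by a lipid and binds Plxnc1, was the most abundant semaphorin and had 38.1, 34.1 and 27.8 FPKM in the WT mice against 30.6, 23.8 and 25.7 FPKM in the KO mice. KO 1 lay within the WT range, and the log2 fold change was −0.31 (SE 0.20, limma p = 0.165, exact permutation p = 0.2), or −0.16 after the GC correction.

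The 4 class 6 and 6 class 4 semaphorins all had negative log2 fold changes, with medians of −0.37 and −0.29, but none had overlap-free groups and none an unadjusted limma p under 0.05. The class 6 genes summed to 61.00, 81.5 and 76.3 FPKM in the WT and 53.95, 81.6 and 41.3 FPKM in the KO mice. KO 2 was at the WT level and KO 3 was the lowest, and *Sema6b*, the most abundant of them, had 24.7, 34.6 and 27.7 FPKM in the WT mice against 23.2, 27.95 and 12.3 FPKM in the KO mice.

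Plexins, the semaphorin receptors, all overlapped between the groups and had a median log2 fold change of −0.18. *Plxnb2*, the most abundant guidance gene, had 70.4, 65.5 and 67.1 FPKM in the WT mice against 60.3, 49.7 and 103 FPKM in the KO mice. The WT mice were close together, whereas the KO mice lay on both sides of them, and the log2 fold change was 0.00 (SE 0.26, limma p = 0.999, exact permutation p = 1). It was −0.30 without KO 3 and 0.22 without KO 2, so no direction is given for it. *Plxnd1*, the endothelial receptor for Sema3e, had 28.9, 38.95 and 28.3 FPKM in the WT mice against 25.4, 22.9 and 28.9 FPKM in the KO mice. KO 3 lay within the WT range, and the log2 fold change was −0.30 (SE 0.21, limma p = 0.18, exact permutation p = 0.2), −0.12 after the GC correction and −0.38 to −0.15 when each library was left out (nearest to 0 without WT 2). Its ligand *Sema3e* was low, with 0.916 to 2.42 FPKM in WT and 1.12 to 2.77 FPKM in KO mice.

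Of the Slits and Robos, *Robo1* alone had groups that did not overlap. It had 18.3, 14.6 and 14.5 FPKM in the WT mice against 7.56, 13.3 and 7.70 FPKM in the KO mice. KO 1 and KO 3 were well below the WT mice and KO 2 just below them, with means of 15.8 ± 2.13 FPKM for WT and 9.51 ± 3.26 FPKM for KO mice (± SD, 3 mice each, exact permutation p = 0.1) and a log2 fold change of −0.71 (SE 0.25, limma p = 0.0182, adjusted p = 0.841). *Robo4*, the endothelial Robo and the most abundant of its family, had 21.9, 15.04 and 17.6 FPKM in the WT mice against 17.1, 15.6 and 15.2 FPKM in the KO mice. Its KO values lay inside the WT range, and the log2 fold change was −0.17 (SE 0.21, limma p = 0.442, exact permutation p = 0.5), ranging over −0.29 to −0.03 when each library was left out and −0.07 after the GC correction. *Slit3*, the most abundant Slit, had 8.16, 9.61 and 10.3 FPKM in the WT mice against 7.82, 8.56 and 12.3 FPKM in the KO mice. Its groups overlapped, with a log2 fold change of 0.01 (SE 0.23, limma p = 0.962, exact permutation p = 1). *Slit1* had 6.52, 7.46 and 7.14 FPKM in the WT mice against 4.02, 7.27 and 2.19 FPKM in the KO mice, where KO 2 was within the WT range.

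The 4 netrins summed to 13.5 to 29.5 FPKM in WT and 18.7 to 21.9 FPKM in KO mice, with overlap. Of them, *Ntn3* had 5.13, 5.79 and 4.18 FPKM in the WT mice against 3.45, 2.98 and 2.80 FPKM in the KO mice. All KO mice were lower, with a log2 fold change of −0.56 (SE 0.25, limma p = 0.0526, exact permutation p = 0.1), but its exons overlap those of *Tbc1d24* on the same strand, so its reads may be shared. *Ntn4*, a netrin of the vascular basement membrane, was the most abundant netrin over all 6 libraries, though *Ntn1* had the higher WT mean (8.11 against 7.40 FPKM). It had 10.3, 8.51 and 3.34 FPKM in the WT mice against 9.10, 7.95 and 11.5 FPKM in the KO mice. WT 3 was the lowest library, and the log2 fold change was 0.42 (SE 0.35, limma p = 0.253, exact permutation p = 0.5), or 0.00 without WT 3. *Unc5b*, the endothelial netrin receptor, had 9.95, 15.8 and 17.2 FPKM in the WT mice against 11.99, 10.1 and 12.4 FPKM in the KO mice. The groups overlapped, with a log2 fold change of −0.27 (SE 0.24, limma p = 0.3, exact permutation p = 0.4), ranging over −0.49 to −0.12 when each library was left out and −0.10 after the GC correction. *Dcc* had 1.40 to 4.69 FPKM in WT and 1.37 to 4.86 FPKM in KO mice.

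The KO mice did not behave alike. In KO 1, 36 of the 66 genes were below the lowest WT mouse and 5 above the highest, and in KO 3 these numbers were 45 and 9. In KO 2 they were 18 and 22. Over all genes tested, 27.98 to 32.6% were below and 28.7 to 31.1% above in a KO mouse. The median difference of the guidance genes from the WT mean was −0.23, 0.06 and −0.56 on the log2 scale in KO 1, KO 2 and KO 3. KO 2 was the highest library for 20 of the genes (30.3%, against 21.3% of all genes tested). These were *Sema3e*, *Sema4a*, *Sema4f*, *Sema5a*, *Sema5b*, *Sema6c*, *Sema6d*, *Plxna3*, *Plxna4*, *Plxnc1*, *Epha3*, *Epha4*, *Epha5*, *Epha6*, *Epha7*, *Robo2*, *Robo3*, *Dcc*, *Unc5a* and *Unc5d*. KO 3 was the lowest library for 34 (51.5%, against 17.3%). The neuron markers summed to 460.3, 668 and 867 FPKM in the WT and 432, 687 and 327 FPKM in the KO mice. Among the KO mice, KO 2 was thus the highest and KO 3 the lowest there as well. Over both groups KO 3 was still the lowest, but WT 3 was the highest. WT 3 was the highest library for 9 of the guidance genes (13.6%). WT 1 and KO 1, with neuron sums of 460.3 and 432 FPKM, were the highest library for 14 and 2 of them. The part of neuronal RNA in the guidance genes was not tested. The ephrin and EphB sums of KO 2 were below those of every WT mouse.

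**Figure D3:**
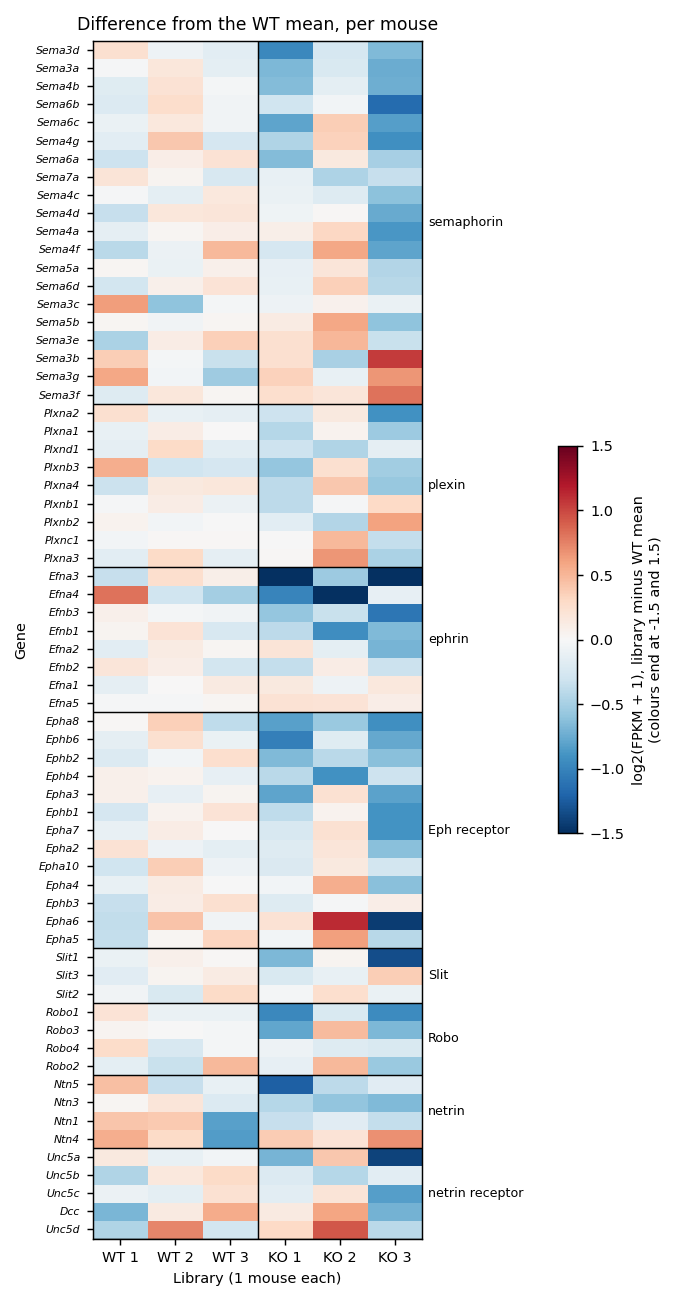
Difference of each library from the WT mean on the log2(FPKM + 1) scale for the 66 tested guidance genes (rows, by family), blue for lower and red for higher values. KO 1 and KO 3 are mostly blue (medians −0.23 and −0.56), and KO 2 holds both colours (median 0.06).

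**Figure D4:**
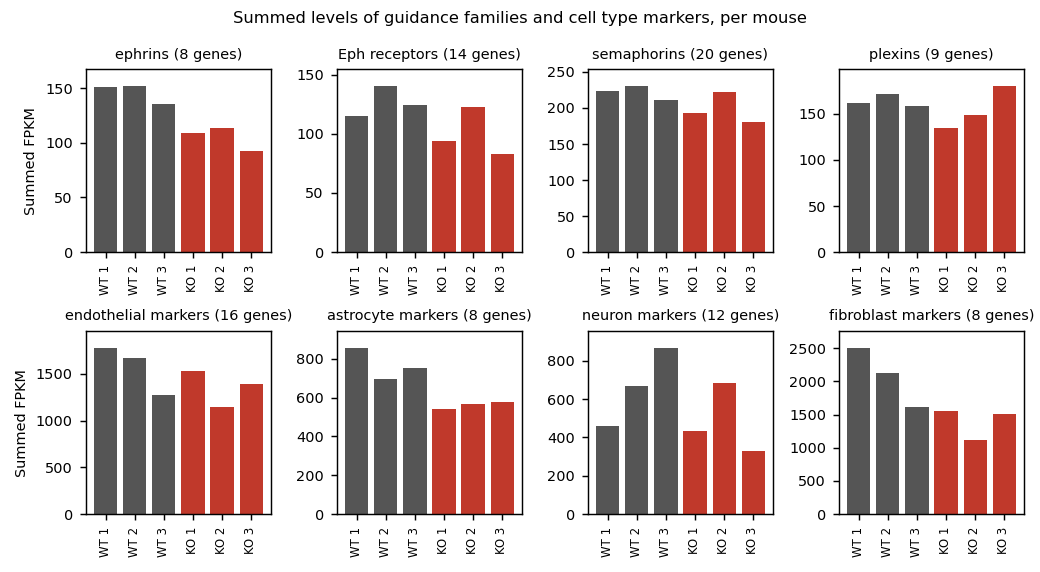
Summed FPKM of 4 guidance families (top) and 4 lists of cell type markers (bottom) in each mouse, WT in grey and KO in red. The ephrin sums are 92.3 to 114 in KO and 136 to 152 in WT mice and the astrocyte sums 542 to 576 and 699 to 857, both without overlap. The fibroblast sums, 1116 to 1555 in KO and 1619 to 2505 in WT mice, do not overlap either, while the endothelial and neuron sums do.

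Fold changes across all genes ran with the GC content of the transcript, and guidance transcripts are rich in GC. Their median GC content was 56.3%, against 50% over all genes tested. The Spearman correlation of log2 fold change with GC content was −0.34 across the 66 genes and −0.35 across 13726 genes, a description of genes that share the same 6 libraries. After each library was corrected for its GC trend, the median log2 fold change of the guidance genes was −0.16, against −0.01 over all genes. *Ephb2*, *Ephb4* and *Ephb6* then had log2 fold changes of −0.46, −0.38 and −0.49 and were no longer under an unadjusted limma p of 0.05. *Sema3a*, at −0.71, and *Sema3f*, at 0.58, were now under it. The part of GC content in the differences was not otherwise tested.

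Beside the families, 20 co-receptors and other cues were listed, of which 13 had a negative log2 fold change (median −0.11) and 1 an unadjusted limma p under 0.05. That gene was *Rgma*, a repulsive ligand of neogenin, with WT values of 25.9, 33.1 and 31.6 FPKM and KO values of 15.1, 18.6 and 17.5 FPKM. The groups were well apart, with a log2 fold change of −0.78 (SE 0.20, limma p = 0.00264, adjusted p = 0.841, exact permutation p = 0.1). *Nrp1*, the co-receptor for class 3 semaphorins and VEGF, had 64.7, 68.1 and 62.3 FPKM in the WT mice against 78.6, 82.1 and 87.2 FPKM in the KO mice. It was higher in every KO mouse, with a log2 fold change of 0.34 (SE 0.18, limma p = 0.0886, exact permutation p = 0.1). Its limma p was 0.0359 without the filter on low values, and after the GC correction its log2 fold change was 0.20. *Nrp2* had 15.7, 24.05 and 18.3 FPKM in the WT mice against 15.8, 21.5 and 14.2 FPKM in the KO mice, and its groups overlapped, with a log2 fold change of −0.16 (SE 0.24, limma p = 0.514, exact permutation p = 0.6). Of 73 intracellular effectors, 48 had a negative log2 fold change (median −0.08), and 2 were lower at an unadjusted limma p under 0.05. For both lists the share called was near or below the 5.88% of all genes tested, so the genes called are named as members of the lists and not as a result about them.

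The effectors called were *Abl1* and *Ngef*, each lower in every KO mouse. *Abl1*, a tyrosine kinase that acts in Robo signalling, had 23.8, 24.9 and 19.4 FPKM in the WT mice against 13.5, 16.99 and 16.5 FPKM in the KO mice. Its log2 fold change was −0.51 (SE 0.20, limma p = 0.0311, adjusted p = 0.841, exact permutation p = 0.1), and its unadjusted p was above 0.05 in 4 of 12 alternative settings, namely the GC correction (−0.39) and leaving out WT 1, WT 2 or KO 1. *Ngef*, or ephexin, an exchange factor downstream of EphA receptors, had 16.4, 18.6 and 24.1 FPKM in the WT mice against 10.5, 14.4 and 12.1 FPKM in the KO mice. Its log2 fold change was −0.63 (SE 0.22, limma p = 0.0181, adjusted p = 0.841, exact permutation p = 0.1), and its unadjusted p was above 0.05 in 2 of them, without WT 3 and without KO 1. The unadjusted p of *Rgma* was above 0.05 in 0 of them.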

How the data were processed

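RNA from cerebral microvessels of 3 WT and 3 KO mice was sequenced from directional libraries. The authors trimmed the reads, aligned them with TopHat (mm10 in the submitters' processing notes) and deposited FPKM values per gene symbol. The quantification tool, its annotation and its use of strand are not given in the sources used here. The authors tested with DESeq2, which needs counts, so limma 3.58.1 in R 4.3.3 was run here on log2(FPKM + 1) instead, with a trended variance, a minimum mean of 1 FPKM and Benjamini-Hochberg adjustment. Single values were also tested by exact two-sided permutation. Groups follow the sample titles, and p-values measure the spread between these mice. Depth was estimated from the spacing of low FPKM values and covers counting error only. GC content came from the longest GENCODE M21 transcript (GRCm38). Simulated data of 14247 genes had independent normal noise at the spread of each gene. There, 162 of 200 genes changed 2-fold were found at a limma p under 0.05, as were 5.50% of unchanged genes, and 0 once adjusted. Of 200 changed 4-fold, 158 were found after adjustment. The simulation held no trend shared by a library, such as that with GC content, so these rates need not hold for the real libraries. Members and gene lists were chosen with earlier results of these data known. Values by library are given for the most abundant gene of each family (mean of all libraries), family members with an unadjusted limma p under 0.05 or without overlap, genes of the other pathway lists with such a p, the marker *Cdh5*, *Efnb2*, *Ephb4*, *Robo4*, *Unc5b*, *Sema3g*, *Plxnd1*, *Nrp1* and *Nrp2*, and a few others (*Efna4*, *Epha6*, *Sema6b*, *Slit1*, *Emcn*) named after their values were seen. Alternatives were no filter, a minimum of 5 FPKM, a pseudocount of 0.1, median scaling, a correction for GC content, a replicate block and leaving out each library.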

Additional observations from a re-analysis of the deposited data

How the results depend on the processing

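No guidance gene passed adjustment with limma under any of the 12 alternatives (0 genes each). When each library was left out in turn, the lower guidance genes with an unadjusted limma p under 0.05 numbered 3 to 21, those with every KO mouse lower 13 to 30 (highest without KO 2, where 14.3% of all genes were so) and those with every KO mouse higher 2 to 3 (beside 8.04 to 16.3% of all genes). With a group of 2, 8.90 to 14.3% of all genes tested also had every KO mouse lower, so these counts cannot be set against the 11 of the full groups. Those with every KO mouse higher numbered 1 with median scaling, where *Sema3f* overlapped and 5.45% of all genes were so. The number higher at an unadjusted p under 0.05 was 1 with the GC correction, where 2.44% of all genes were. Over all genes tested, 450 to 1871 genes had an unadjusted and 0 to 4 an adjusted limma p under 0.05 without a library, the latter being 1 without WT 3, 4 without KO 2 and 4 without KO 3. The median log2 fold change of the guidance genes was −0.37 to −0.13, and the log2 ratio of *Efnb2* to *Ephb4* differed by 0.01 to 0.53.

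Of 22 guidance genes, 20 had the same sign under every alternative run. *Plxnb2* was −0.30 to 0.22 without a library and −5.81e-04 with a pseudocount of 0.1, and *Slit3* was −0.17 to 0.13. Outside the families, *Nrp2* was −0.33 to 6.22e-04. The cause was not tested. With the replicate number as a block, 7 guidance genes were lower at an unadjusted limma p under 0.05, beside 9 without it, where 3.03% and 3.11% of all genes tested were. The numbers were not taken to pair the mice, since the deviations of libraries with the same number correlated at 0.0375, 0.0267 and 0.00159. These numbers are those of the sample titles. The file headers number the mice differently and write the names of KO 1 and KO 2 in another style than the other names, and what this marks is not given in the sources used here. The first style holds KO mice only, and KO 3 is the only KO mouse in the other, with a median difference from the WT mean of −0.56 over the guidance genes. Depth limits the lowest genes, such as *Efna4*.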
